A study of Mus musculus with 16 samples.

Results

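The 42 genes described here encode the integrins of mouse osteoclasts and the podosome and sealing-zone machinery that works with them. They were chosen by gene symbol from 5 integrin beta chains, 8 integrin alpha chains, 8 adhesion adaptors, 2 adhesion kinases, 10 actin nucleation genes, 3 genes of actin severing, bundling and scaffolding, and 6 small GTPases with their regulators. The rule names symbols and no measured value, but the members were chosen with earlier results of these data known. No test of the list as a whole was therefore made. All 42 were found among the 21936 genes of the deposited count table, and all 42 were among the 12093 genes with enough counts to be tested.

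RNA was sequenced from 16 osteoclast cultures of C57BL/6J mouse lines in 4 genotypes with 4 libraries each. The FLT3 ITD Ptprc KO cultures carried both a knocked-in internal tandem duplication of Flt3 (FLT3 ITD, which makes this receptor tyrosine kinase active without ligand) and the knockout of Ptprc, which encodes the receptor tyrosine phosphatase CD45, and are called the double mutant here. The FLT3 ITD cultures carried the first change alone, the Ptprc KO cultures the second alone, and the WT cultures neither. All cultures were seeded with CD11b-positive bone marrow cells and held for 3 days in M-CSF at 50 ng/ml before RANKL was added at 20 ng/ml, and they were harvested on day 3 to 5, at the appearance of mature osteoclasts. The protocol also mentions AC220, an inhibitor of Flt3, for inhibition experiments, with which none of the 16 samples is labelled, and the design text states more samples than its 4 groups add up to. CD11b is the product of Itgam, which is a member here, so every culture began with cells selected for it. The labels give neither the harvest day of each culture nor the zygosity of the alleles, and whether the replicates are different animals is not stated. The p-values therefore rest on the spread between cultures, which may be technical.

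Osteoclasts dissolve bone inside a compartment that they close off by a ring of podosomes, the sealing zone. A podosome has a core of branched actin, built by the Arp2/3 complex under WASP and Cdc42, and around it a ring of integrins tied to actin by talin, vinculin, paxillin and kindlin. The integrin αvβ3, a dimer of the products of Itgav and Itgb3, is the main matrix receptor of mature osteoclasts and binds osteopontin and vitronectin, whereas the β2 integrins, in which the product of Itgb2 pairs with those of Itgal, Itgam or Itgax, are receptors of leukocytes in general. Itgb3 is induced late as precursors become osteoclasts, and Itgam is high in the myeloid precursors.

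The promoters of 5 members are shown because these genes carry the pattern that the results turn on. Itgav, Vcl and Rhou had their lowest levels in double-mutant libraries, and Itgax and Itgam had their highest levels there. Each line gives the 250 bases before the annotated start on the plus strand of GRCm38.p6, 5′ to 3′, from the RefSeq promoter table, which held a window for 31 of the 42 members (37 windows in all). Capitals mark the matches to the motifs spelled out after the sequences. The windows lie at chr2:83724147-83724396 for Itgav, chr14:20929148-20929397 for Vcl, chr8:123653679-123653928 for Rhou, chr7:128129300-128129549 for Itgax and chr7:128062390-128062639 for Itgam.
Itgav: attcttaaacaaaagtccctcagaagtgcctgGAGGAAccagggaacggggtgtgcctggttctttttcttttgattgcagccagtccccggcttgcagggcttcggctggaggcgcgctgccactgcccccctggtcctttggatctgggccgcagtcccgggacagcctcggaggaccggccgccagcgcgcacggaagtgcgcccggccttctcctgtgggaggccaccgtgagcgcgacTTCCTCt
Vcl: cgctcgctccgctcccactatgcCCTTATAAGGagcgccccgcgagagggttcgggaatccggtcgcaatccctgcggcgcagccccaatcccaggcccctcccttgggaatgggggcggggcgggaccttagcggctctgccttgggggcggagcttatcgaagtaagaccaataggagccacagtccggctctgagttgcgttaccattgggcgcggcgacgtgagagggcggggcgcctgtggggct
Rhou: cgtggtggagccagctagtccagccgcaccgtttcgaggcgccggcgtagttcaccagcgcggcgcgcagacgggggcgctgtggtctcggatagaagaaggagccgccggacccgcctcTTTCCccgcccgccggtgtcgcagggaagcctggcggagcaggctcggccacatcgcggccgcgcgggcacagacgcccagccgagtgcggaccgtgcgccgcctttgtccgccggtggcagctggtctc
Itgax: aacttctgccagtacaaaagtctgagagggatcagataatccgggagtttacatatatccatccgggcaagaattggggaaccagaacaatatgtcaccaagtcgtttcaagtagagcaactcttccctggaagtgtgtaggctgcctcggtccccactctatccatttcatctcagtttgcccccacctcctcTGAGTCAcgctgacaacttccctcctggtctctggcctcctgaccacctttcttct
Itgam: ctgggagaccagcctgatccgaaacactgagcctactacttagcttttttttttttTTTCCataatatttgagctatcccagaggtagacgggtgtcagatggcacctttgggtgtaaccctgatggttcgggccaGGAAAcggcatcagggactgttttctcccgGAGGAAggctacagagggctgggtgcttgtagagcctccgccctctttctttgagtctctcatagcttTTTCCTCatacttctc
Both strands were searched for GAGGAA (a core of ETS sites such as that of PU.1, the myeloid lineage factor), TGANTCA (AP-1), CACGTG and CATGTG (E-boxes), GGAAA (a core of NFAT sites) and the CArG box of the serum response factor SRF. GAGGAA and GGAAA can share bases, as they do in the capitals nearest the start of Itgam. The Itgav window held GAGGAA at positions -218 and -7, the second on the minus strand, and the Itgam window at -84 and -15. The Itgax window held TGAGTCA at -56, the Vcl window a CArG box at -227, and the Rhou window GGAAA at -130 on the minus strand. The Itgam window also held GGAAA at -194, -114 and -16.

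Of the 37 member windows, 18.9% held GAGGAA, against 23.3% of all 32851 windows. For GGAAA the shares were 48.6% of member windows and 55.6% of all. TGANTCA was in 10.8% of member windows and 6.7% of all, the CArG box in 2.7% and 1.5%, CACGTG in 2.7% and 6.0%, and CATGTG in 8.1% and 12.3%. The median GC content was 64.0% in member windows and 52.4% in all windows. The set of all windows was not limited to genes tested here, whereas every member was tested, so these shares and medians compare unlike sets. The Itgax and Itgam windows stood at 50.0% and 49.6% GC, and the Rhou, Vcl and Itgav windows at 73.2%, 67.2% and 64.4%. A match to these letters is a description of the window and not evidence of a bound factor.

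Library totals ran from 24211724 to 35773313 counts. Ptprc, the targeted gene, stood at 30.8 to 86.7 CPM (counts scaled to library size with TMM factors) in the libraries with the knockout and at 230 to 543 CPM in the others. FLT3 ITD replicates 1 and 3 were by far the closest pair of libraries, though they differed by more than counting noise. Their chi-square per gene was 2.73, where the next closest pair, Ptprc KO replicates 2 and 3, had 12.6. How independent these FLT3 ITD cultures are is not stated. FLT3 ITD replicate 2 had a trend of its levels with gene length (Spearman correlation -0.46, against -0.181 to 0.181 in the other 15 libraries). Resorption gene levels differed within genotypes. The mean log2 CPM of 15 resorption genes such as Ctsk and Acp5 was 8.82, 9.03, 10.54 and 8.84 in double-mutant replicates 1 to 4, 10.92, 11.01, 10.88 and 9.48 in FLT3 ITD, 10.09, 11.16, 11.11 and 9.98 in Ptprc KO, and 10.30, 10.52, 10.20 and 10.43 in WT. Double-mutant replicate 3 and FLT3 ITD replicate 4 thus stood apart from their own groups, in opposite directions, and the results that rest on them are given with and without them. In bulk RNA, fewer cells of a type and less RNA per cell cannot be told apart.

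Levels between genes were compared in TPM, the authors' length-scaled unit. The members with the highest means were a podosome core gene, a GTPase and the β2 chain. Arpc2, a subunit of the Arp2/3 complex that nucleates actin branches, averaged 1368 ± 95.9 TPM in the double mutant, 1381 ± 76.8 in FLT3 ITD, 1302 ± 57.3 in Ptprc KO and 1346 ± 62.0 in WT (SD, n = 4 each). Cdc42, the GTPase that activates WASP proteins, averaged 1192 ± 132 TPM in the double mutant, 1054 ± 42.3 in FLT3 ITD, 1078 ± 58.8 in Ptprc KO and 1079 ± 48.8 in WT. Itgb2, the shared beta chain of the leukocyte integrins, ranked first of the 42 in the double mutant at 1643 ± 309 TPM and overlapped Arpc2 there, and it averaged 1058 ± 314 in FLT3 ITD, 1015 ± 112 in Ptprc KO and 1062 ± 136 in WT.

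Among the other beta chains, Itgb1, the partner of most alpha chains, came next at 604 ± 49.4 TPM in the double mutant, 575 ± 121 in FLT3 ITD, 607 ± 33.6 in Ptprc KO and 612 ± 36.2 in WT. Itgb3 averaged 75.8 ± 49.2 TPM in the double mutant, where it ranked 29 of 42, 211 ± 99.0 in FLT3 ITD (rank 17), 222 ± 80.1 in Ptprc KO (rank 18) and 148 ± 42.5 in WT (rank 23). Itgb7, which pairs with Itga4 in lymphocyte homing, overlapped Itgb3 in TPM in all 4 genotypes, with means of 153 in the double mutant, 205 in FLT3 ITD, 175 in Ptprc KO and 141 in WT. Itgav was the alpha chain with the highest mean in FLT3 ITD (287 TPM), Ptprc KO (321 TPM) and WT (290 TPM). In the double mutant Itga5, the fibronectin receptor chain, had the higher mean, at 222 ± 82.6 TPM, against 171 ± 86.2 TPM for Itgav, and their libraries overlapped.

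The members with the lowest mean TPM in the 4 genotypes were Fscn1 (fascin, an actin bundler of dendritic cells and filopodia), Itga9 (an alpha chain that pairs with Itgb1) and Ptk2 (focal adhesion kinase). Fscn1 averaged 3.65 TPM in the double mutant, 3.80 in FLT3 ITD, 2.59 in Ptprc KO and 1.55 in WT. Itga9 averaged 2.44 TPM in the double mutant, 2.23 in FLT3 ITD, 6.51 in Ptprc KO and 7.84 in WT. Ptk2 averaged 10.1 TPM in the double mutant, 4.64 in FLT3 ITD, 4.96 in Ptprc KO and 4.94 in WT. Ptk2b (Pyk2), the related kinase that is the main one of the pair in osteoclasts, averaged 122 ± 22.9 TPM in the double mutant, 84.6 ± 24.0 in FLT3 ITD, 84.9 ± 10.9 in Ptprc KO and 86.7 ± 13.1 in WT. The ubiquitous N-WASP gene Wasl averaged 13.2 TPM in the double mutant and 14.4 in WT, and Was, its relative of blood cells, 196 in the double mutant and 188 in WT, so that the blood-cell form was the more abundant of the pair.

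**Figure D1:**
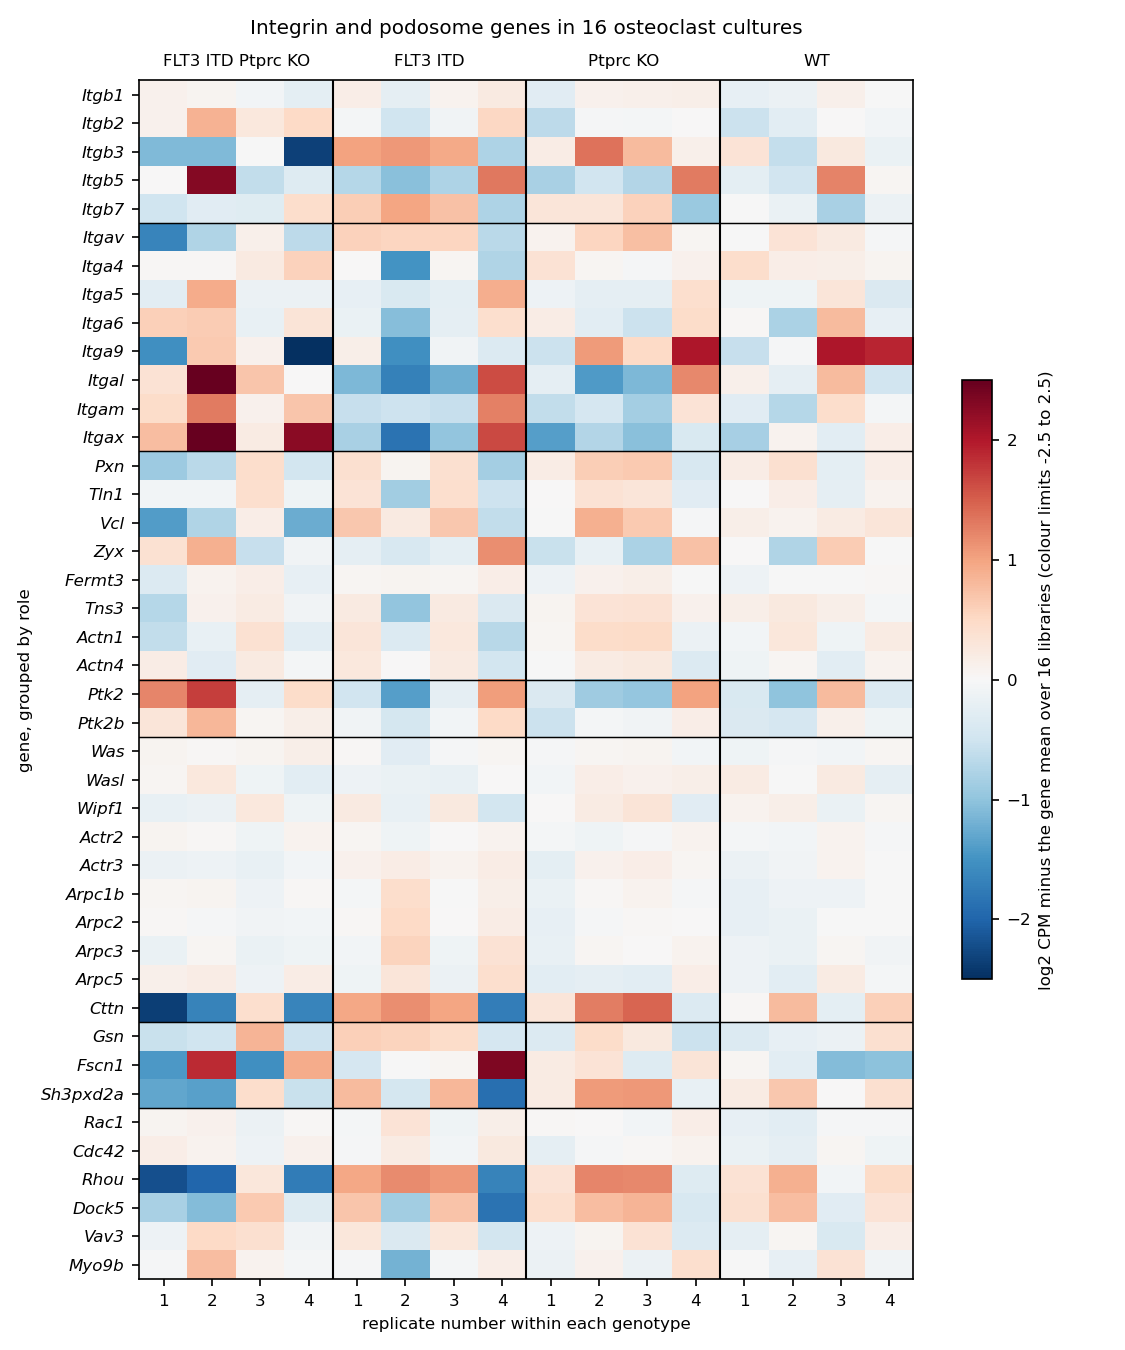
Heatmap of the 42 members by role (down) in the 16 libraries (across, grouped by genotype), coloured by log2 CPM minus the gene's mean over the libraries. Itgb3, Cttn and Rhou are low in double-mutant replicates 1, 2 and 4 and in FLT3 ITD replicate 4, where Itgax and Itgam are high, and the Arp2/3 genes vary little.

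The members split by how steady they were. Of the 10 genes of WASP and Arp2/3 actin nucleation, 9 varied less than 2-fold between the lowest and the highest of all 16 libraries. Actr2, the Arp2 subunit, was the steadiest member, with 1013, 984, 898 and 1019 CPM in double-mutant replicates 1 to 4, 1003, 892, 971 and 1021 in FLT3 ITD, 936, 898, 939 and 1017 in Ptprc KO and 936, 924, 1030 and 950 in WT, a range of 1.15-fold. The exception of the 10 was Cttn (cortactin, which binds Arp2/3 branches and stabilises them), with a range of 14.0-fold.

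Integrin chains were less even. Of the 8 alpha chains, 6 varied more than 4-fold and 3 more than 10-fold, and none less than 2-fold. Of the 5 beta chains, Itgb3 and Itgb5 varied more than 10-fold and Itgb1 by 1.44-fold. The 8 adhesion adaptors lay between 1.42-fold for Fermt3 (kindlin-3, the integrin activator of blood cells) and 4.87-fold for Vcl (vinculin, which links talin to actin). Within genotypes, the SD of log2 CPM had a median of 0.41 over the 42 members, against 0.35 over all 12093 genes tested, and ran from 0.079 for Actr2 to 1.36 for Itga9.

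The remaining members had counts in all 16 libraries. Tln1 (talin-1, which activates integrins and binds vinculin) had 644 to 1583 CPM, Actn1 and Actn4 (α-actinins, which crosslink actin) 348 to 789 and 372 to 610 CPM, and Zyx (zyxin, an adaptor under tension) 41.8 to 161 CPM. Of the nucleation genes, Arpc1b had 878 to 1368 CPM, Arpc5 430 to 696, Arpc3 289 to 481, and Wipf1 (WIP, which holds WASP proteins stable) 184 to 317. Rac1, the GTPase that Dock5 and Vav3 activate, had 349 to 531 CPM, Vav3, an exchange factor that signals under αvβ3, 42.8 to 83.2 CPM, and Myo9b, a myosin that carries a GTPase-inactivating domain, 109 to 427 CPM. FLT3 ITD replicate 2 held the lowest value of 12 of the 42 members and double-mutant replicate 2 the highest of 11. The shares of all genes with their lowest or highest value in these libraries were not computed.

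**Figure D2:**
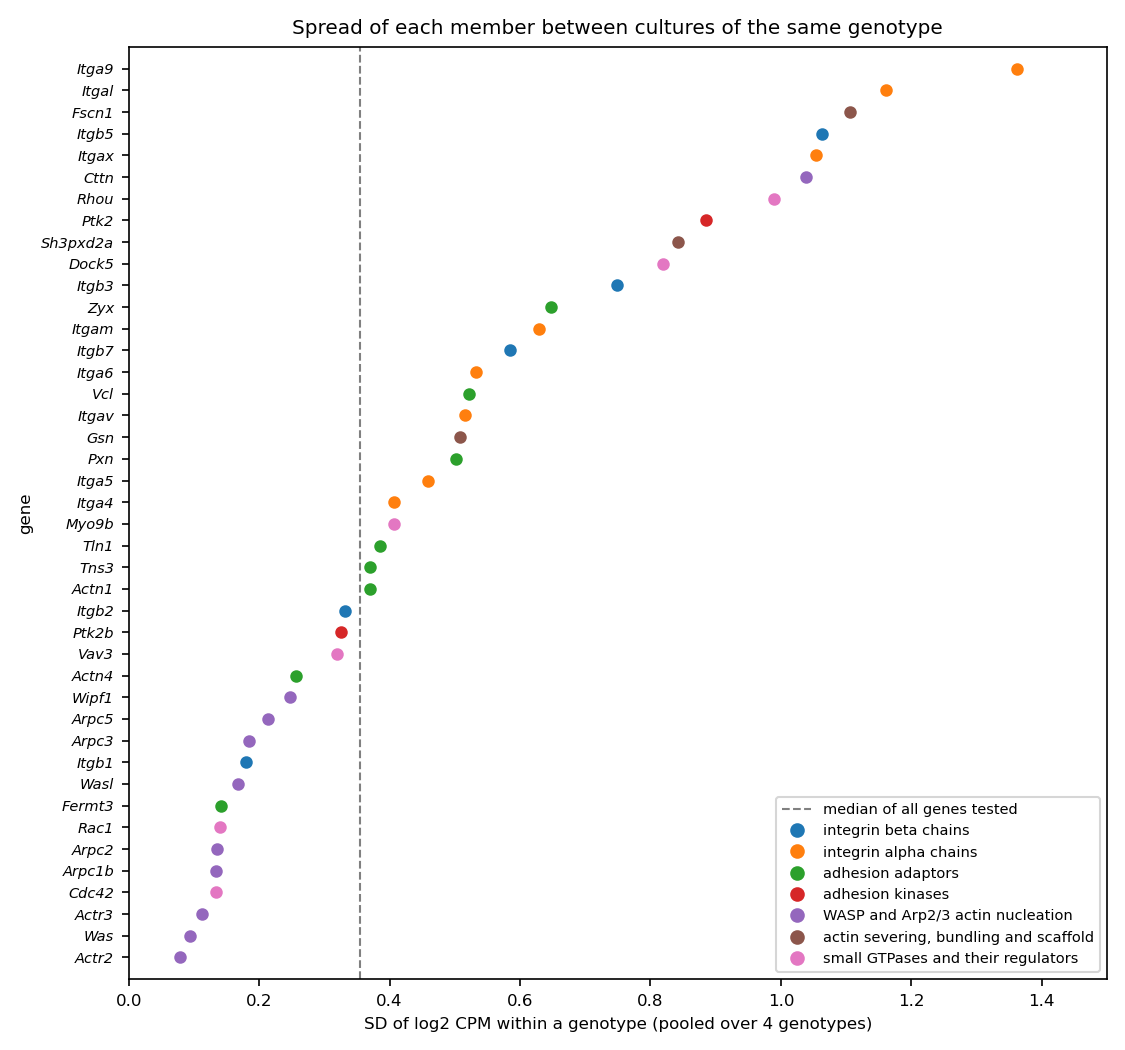
Pooled SD of log2 CPM between the 4 libraries of a genotype (across) for each member (down, coloured by role), with the median of all genes tested as a dashed line. Actr2 lies lowest at 0.079 and Itga9 highest at 1.36, and the Arp2/3 subunits lie left of the dashed line at 0.35.

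The αvβ3 integrin genes had their lowest libraries in the double mutant. Itgb3 (ENSMUSG00000020689, GRCm38 chromosome 11, 104608000 to 104670476, plus strand) had 114, 115, 246 and 48.5 CPM in double-mutant replicates 1 to 4, 491, 525, 476 and 143 in FLT3 ITD, 278, 628, 427 and 269 in Ptprc KO, and 311, 163, 293 and 219 in WT. All 4 double-mutant libraries lay under all 4 Ptprc KO libraries, and they overlapped FLT3 ITD only through FLT3 ITD replicate 4. Itgav (ENSMUSG00000027087, chromosome 2, 83724397 to 83806916, plus strand), the αv chain, had 256, 479, 881 and 512 CPM in the double mutant, 1195, 1171, 1165 and 502 in FLT3 ITD, 860, 1163, 1359 and 828 in Ptprc KO, and 796, 1012, 943 and 786 in WT. Double-mutant replicates 1, 2 and 4 lay under every WT and Ptprc KO library, replicate 3 did not, and FLT3 ITD replicate 4 sat among the double-mutant values.

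3 further members shared this order of libraries. Vcl (chromosome 14, 20929398 to 21033676, plus strand) had 65.2, 102, 191 and 72.6 CPM in the double mutant, 274, 200, 273 and 111 in FLT3 ITD, 170, 317, 270 and 167 in Ptprc KO and 188, 181, 196 and 209 in WT. Cttn (chromosome 7, 144435733 to 144471009, minus strand) had 15.8, 25.5, 108 and 25.7 CPM in the double mutant, 157, 180, 160 and 24.2 in FLT3 ITD, 99.5, 197, 221 and 63.7 in Ptprc KO and 82.0, 140, 68.6 and 122 in WT. Rhou (chromosome 8, 123653929 to 123663884, plus strand), an atypical GTPase that osteoclasts induce with RANKL, had 6.19, 7.23, 35.2 and 8.55 CPM in the double mutant, 56.0, 64.8, 61.0 and 8.99 in FLT3 ITD, 36.4, 66.6, 66.0 and 22.9 in Ptprc KO and 37.2, 53.2, 27.3 and 39.9 in WT. In all 3 genes double-mutant replicate 3 was the high library of its genotype and FLT3 ITD replicate 4 the low one, and these libraries made the 2 genotypes overlap. The annotated span of Rhou overlaps that of the counted gene Gm20388 on its own strand, and the span of Vcl overlaps Ap3m1 on the other strand. Overlap of exons was not examined. Reads of these pairs may have been left out or misassigned. The strand setting used in counting was not given in the sources used here.

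Sh3pxd2a, Pxn, Dock5 and Gsn had their lowest library in the double mutant or in FLT3 ITD. Not every adaptor did, as Zyx was lowest in Ptprc KO replicate 3 (41.8 CPM). Sh3pxd2a (Tks5, the scaffold needed for podosomes to degrade matrix) had 85.5, 82.2, 288 and 143 CPM in the double mutant, 367, 156, 374 and 57.5 in FLT3 ITD, 243, 444, 449 and 186 in Ptprc KO and 242, 338, 213 and 280 in WT. Pxn (paxillin) had 203, 238, 514 and 276 CPM in the double mutant, 499, 397, 502 and 210 in FLT3 ITD, 431, 581, 593 and 287 in Ptprc KO and 429, 503, 320 and 428 in WT. Dock5, the Rac exchange factor that osteoclasts need to form the sealing zone, had 245, 202, 671 and 342 CPM in the double mutant, 692, 233, 700 and 118 in FLT3 ITD, 574, 734, 776 and 324 in Ptprc KO, and 564, 735, 353 and 540 in WT. Double-mutant replicate 3 was again the highest of its genotype for each of them. Gsn (gelsolin, which severs actin and is needed for normal podosomes) had 494, 514, 1304 and 509 CPM in the double mutant, 1099, 1065, 1004 and 543 in FLT3 ITD, 570, 1005, 865 and 504 in Ptprc KO and 569, 628, 653 and 958 in WT.

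**Figure D3:**
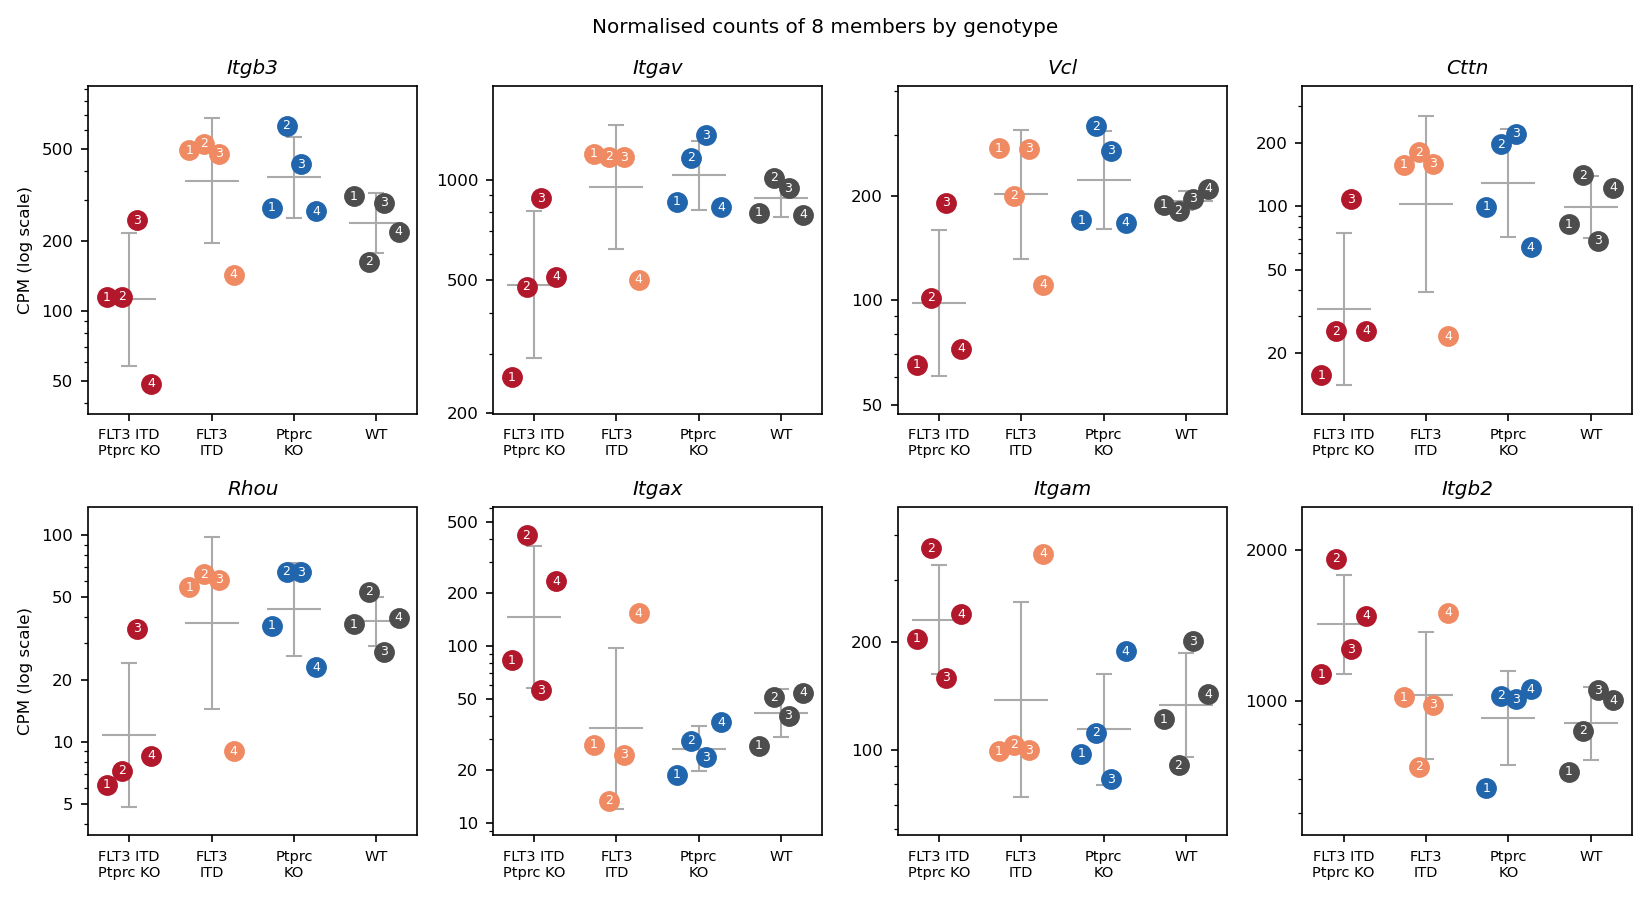
CPM on a log axis of 8 members in each library, by genotype, with the replicate number in each point and the geometric mean with 1 SD of log2 CPM as grey bars. For Itgb3, Itgav, Vcl, Cttn and Rhou, double-mutant replicate 3 lies above its group and FLT3 ITD replicate 4 below its group, and for Itgax and Itgb2 every double-mutant library lies above every WT and Ptprc KO library.

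The β2 integrin genes ran the other way. Itgax (ENSMUSG00000030789, chromosome 7, 128129547 to 128150657, plus strand), the αX chain known as CD11c and a common marker of dendritic cells and some macrophages, had 82.9, 422, 56.1 and 232 CPM in double-mutant replicates 1 to 4, 27.7, 13.4, 24.3 and 153 in FLT3 ITD, 18.7, 29.2, 23.5 and 37.2 in Ptprc KO, and 27.3, 51.2, 40.5 and 54.4 in WT. Its lowest double-mutant library lay above the highest Ptprc KO and the highest WT library, and FLT3 ITD overlapped through replicate 4. Itgb2 (ENSMUSG00000000290, chromosome 10, 77530252 to 77565708, plus strand) had 1132, 1921, 1269 and 1481 CPM in the double mutant, 1018, 741, 984 and 1502 in FLT3 ITD, 672, 1027, 1010 and 1055 in Ptprc KO, and 724, 873, 1052 and 1005 in WT. It too had every double-mutant library above every WT and Ptprc KO library.

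The other β2 partners overlapped between genotypes. Itgam (chromosome 7, 128062640 to 128118491, plus strand), the αM chain CD11b, had 205, 367, 159 and 240 CPM in the double mutant, 99.0, 103, 99.7 and 354 in FLT3 ITD, 97.5, 112, 82.6 and 189 in Ptprc KO, and 121, 90.3, 202 and 143 in WT. Its annotated span overlaps that of the counted gene Gm49368 on the same strand. Itgal, the αL chain of LFA-1, had 50.2, 253, 63.3 and 39.3 CPM in the double mutant, 18.0, 12.04, 16.8 and 121 in FLT3 ITD, 33.4, 14.7, 17.9 and 90.2 in Ptprc KO, and 42.9, 33.3, 67.9 and 27.9 in WT. In both genes FLT3 ITD replicate 4 and Ptprc KO replicate 4 were the highest libraries of their genotypes. Itgal, Itgam and Itgax lie in this order on chromosome 7, with 727.5 kb between the first pair and 11.1 kb between the second, and Itgad, which is no member, follows 3.72 kb after Itgax.

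Itgb5, the partner of αv in αvβ5, which macrophages and precursors carry before β3, was high in 1 library of each genotype. It had 70.4, 344, 45.5 and 56.0 CPM in the double mutant, 42.7, 33.7, 41.1 and 174 in FLT3 ITD, 39.9, 49.9, 41.8 and 171 in Ptprc KO, and 58.9, 50.2, 166 and 72.5 in WT. The same libraries were highest in their genotypes for Itga5, at 536, 527, 380 and 348 CPM, where the other 12 libraries had 216 to 263 CPM. They were also highest in their genotypes for 15 macrophage markers together, with summed levels of 10220 CPM in double-mutant replicate 2, 10613 CPM in FLT3 ITD replicate 4, 9091 CPM in Ptprc KO replicate 4 and 7864 CPM in WT replicate 3, where the others had 2892 to 4909 CPM. At an adjusted p of 0.05, 0 of the 15 markers were higher in any pair of genotypes. 1 was lower in FLT3 ITD against WT, where 0.0413% of all genes passed. 1 was also lower in the double mutant against Ptprc KO (0.091% of all genes) and against WT (0.108%). At an unadjusted p under 0.05, 4 were lower in each of these 3 pairs, where 3.23%, 9.07% and 3.69% of all genes were. By sign alone, 8 of 15 lay above 0 in the double mutant against FLT3 ITD (52% of all genes). Against Ptprc KO 7 did (54.4%) and against WT 9 did (56.3%). Of these macrophage markers, Vsig4 had 0 counts in all double-mutant and FLT3 ITD libraries together, against 321 counts in Ptprc KO and 370 in WT, and Cd163 and Timd4 were at 0 in some libraries. Their part in these results was not tested.

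Among the other integrin chains, Itga4, the α4 chain that binds VCAM-1 and fibronectin, had 184, 187, 212 and 270 CPM in the double mutant, 184, 64.1, 188 and 108 in FLT3 ITD, 234, 188, 178 and 195 in Ptprc KO, and 248, 205, 200 and 190 in WT. Every FLT3 ITD library lay below every WT library. Itgb7 had 91.7, 106, 105 and 177 CPM in the double mutant, 200, 257, 215 and 76.7 in FLT3 ITD, 160, 160, 194 and 68.3 in Ptprc KO and 129, 115, 74.0 and 118 in WT, with FLT3 ITD replicate 4 and Ptprc KO replicate 4 low in their genotypes. Itgb1 had 796, 769, 702 and 619 CPM in the double mutant, 822, 634, 783 and 866 in FLT3 ITD, 601, 794, 803 and 819 in Ptprc KO, and 643, 668, 799 and 735 in WT, and all groups overlapped. Itga6, a laminin receptor chain, ran from 61.5 to 108 CPM in the double mutant, 33.4 to 93.1 in FLT3 ITD, 48.3 to 96.5 in Ptprc KO and 40.4 to 121 in WT.

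The double mutant and FLT3 ITD differ in CD45 while both carry the Flt3 mutation. None of the 42 members passed an adjusted p of 0.05 in edgeR's quasi-likelihood test, where 0.00827% of all genes tested did (1 gene). At an unadjusted p under 0.05 there were 9 members, where 25.7% of all genes had such a p. Of them 2 were higher in the double mutant, where 11.9% of all genes were, and 7 were lower, where 13.7% of all genes were. The 5 lowest log2 fold changes were those of Rhou (-1.74, SE 0.63, adjusted p = 0.135), Itgb3 (-1.64, SE 0.48, adjusted p = 0.11), Cttn (-1.57, SE 0.65, adjusted p = 0.159), Vcl (-0.99, SE 0.35, adjusted p = 0.13) and Itgav (-0.92, SE 0.33, adjusted p = 0.135). The 5 highest were those of Itgax (1.86, SE 0.72), Itgal (1.28, SE 0.82), Ptk2 (0.97, SE 0.59), Itgb5 (0.82, SE 0.75) and Itga4 (0.65, SE 0.27), with adjusted p from 0.144 for Itgax to 0.48 for Itgb5. Itgb5 lies at -0.35 without double-mutant replicate 2.

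Actr3, the Arp3 subunit, was the 1 member of 42 whose libraries did not overlap between the double mutant and FLT3 ITD, where 8.47% of all genes did not overlap. It had 821, 838, 805 and 865 CPM in the double mutant and 985, 1037, 969 and 1040 CPM in FLT3 ITD, which is -0.28 on the log2 scale (SE 0.11, adjusted p = 0.158). Of all genes tested, 4.95% did not overlap and were higher in the double mutant, and 3.52% did not overlap and were lower. The members' median log2 fold change was -0.035, beside 0.027 over all genes, and 18 of 42 were above 0, where 52% of all genes were.

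With 1 library left out, members passed in 2 of 16 edgeR fits, those without a library that stood apart. These libraries were singled out by resorption levels that ran against their groups, and Itgb3, Itgav, Vcl, Cttn and Rhou followed those levels. For such genes, leaving either out widens the difference and narrows the spread. These fits, here and below, are therefore description and not support. Without FLT3 ITD replicate 4, its genotype kept the closest pair and replicate 2. In that fit 8 members passed, among 14.7% of all genes tested. Itgb3 (-1.93, adjusted p = 0.0291), Rhou (-2.09, adjusted p = 0.035), Itgav (-1.15, adjusted p = 0.0357), Vcl (-1.21, adjusted p = 0.0359) and Cttn (-1.92, adjusted p = 0.0438) fell, and Itgax (3.19, adjusted p = 0.027), Itgam (1.27, adjusted p = 0.0357) and Itgal (2.70, adjusted p = 0.0371) rose. Without double-mutant replicate 3, Itgb3, Rhou, Itgav, Vcl and Cttn fell, with log2 fold changes from -1.28 for Itgav to -2.70 for Rhou and adjusted p from 0.0263 to 0.0335, among 10.8% of all genes. DESeq2 on all 16 libraries called 3 members lower, Itgb3 (-1.67, adjusted p = 0.018), Actr3 (-0.31, adjusted p = 0.0277) and Rhou (-1.77, adjusted p = 0.0461), among 8.14% of all genes.

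**Figure D4:**
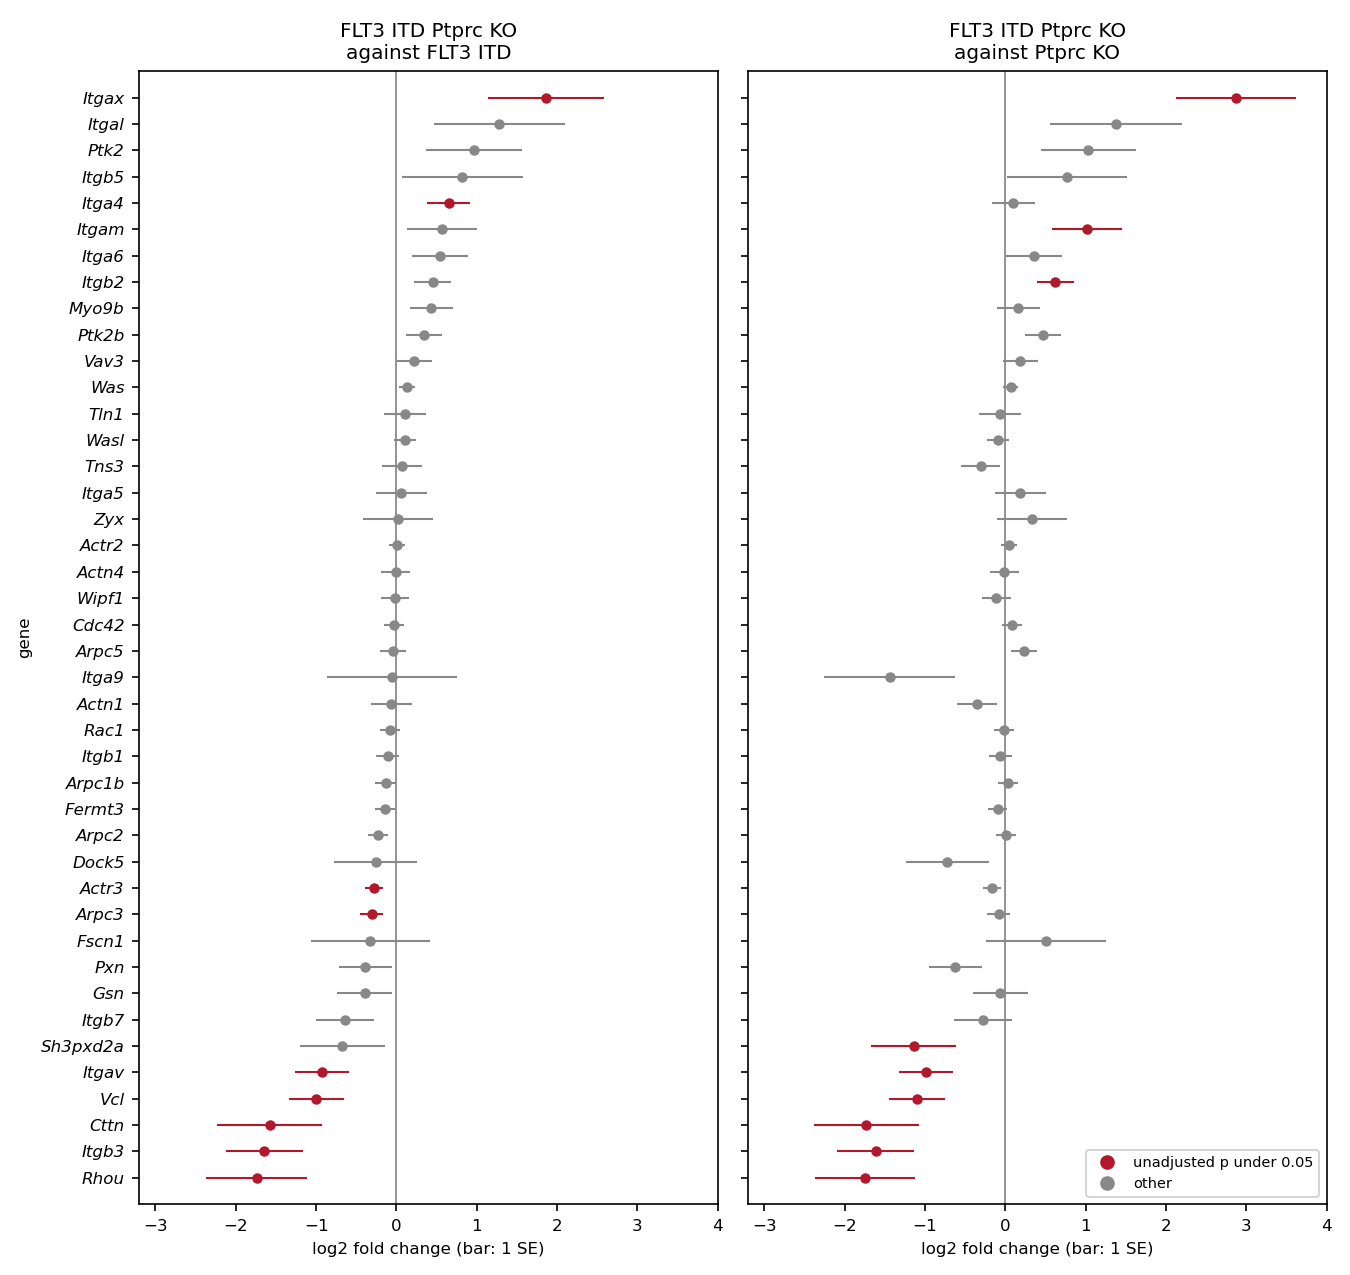
Log2 fold change (across, with 1 SE) of the 42 members (down) in the double mutant against FLT3 ITD (left) and against Ptprc KO (right), with members at an unadjusted p under 0.05 in red. Rhou, Itgb3, Cttn, Vcl and Itgav lie left of 0 and Itgax right of 0 in both panels, which share the double-mutant libraries.

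The double mutant and Ptprc KO both lack CD45 and differ in the Flt3 mutation. Again 0 of 42 members passed (0.091% of all genes, 11 genes), and 9 had an unadjusted p under 0.05, where 17.8% of all genes had one. Of these, 3 were higher in the double mutant (8.75% of all genes) and 6 lower (9.07% of all genes). Itgax had the difference furthest from 0 of the members, 2.87 on the log2 scale (SE 0.75, adjusted p = 0.145), and the next highest were Itgal (1.38, SE 0.82), Ptk2 (1.03, SE 0.59), Itgam (1.02, SE 0.44) and Itgb5 (0.77, SE 0.75). Without double-mutant replicate 2, Itgb5 lies at -0.40. The lowest were Rhou (-1.75, SE 0.63), Cttn (-1.73, SE 0.66), Itgb3 (-1.61, SE 0.48), Itga9 (-1.44, SE 0.82) and Sh3pxd2a (-1.14, SE 0.53), with adjusted p from 0.183 for Itgb3 to 0.341 for Itga9. Itgb2 (0.62, SE 0.23), Vcl (-1.10, SE 0.35) and Itgav (-0.98, SE 0.34) stood at adjusted p of 0.25, 0.207 and 0.23.

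3 members did not overlap between the double mutant and Ptprc KO, Itgax and Itgb2 higher and Itgb3 lower, where 6.33% of all genes did not overlap (3.48% higher and 2.84% lower). The members' median was -0.016, beside 0.045 over all genes, and 20 of 42 were above 0, where 54.4% of all genes were. Without FLT3 ITD replicate 4, which enters this comparison only through the shared spread and the choice of genes tested, Itgax passed (2.87, adjusted p = 0.0328), among 0.656% of all genes. Without double-mutant replicate 3, Itgax rose (3.18, adjusted p = 0.0309) and Vcl (-1.53, adjusted p = 0.0221), Rhou (-2.71, adjusted p = 0.0257), Itgb3 (-2.11, adjusted p = 0.0296), Cttn (-2.70, adjusted p = 0.0301) and Itgav (-1.34, adjusted p = 0.0336) fell, among 6.45% of all genes. DESeq2 called Itgax (2.85, adjusted p = 0.00334) and Itgb3 (-1.63, adjusted p = 0.0299), among 2.75% of all genes.

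The double mutant and WT differ in both genes. No member passed of 42 (0.108% of all genes, 13 genes), and 6 had an unadjusted p under 0.05, where 7.89% of all genes had one. They were Itgax (2.19, SE 0.73, adjusted p = 0.455), Itgb2 (0.67, SE 0.23, adjusted p = 0.509) and Ptk2b (0.53, SE 0.23), which were higher in the double mutant, and Vcl (-0.85, SE 0.35), Rhou (-1.46, SE 0.62) and Itgav (-0.73, SE 0.33), which were lower, with an adjusted p of 0.601 for the last 4. The 3 higher members compare with 4.2% of all genes and the 3 lower ones with 3.69%. Itgax and Itgb2 did not overlap, 2 of 42 where 5.5% of all genes did not (2.94% higher and 2.56% lower). The members' median was 0.047, beside 0.053 over all genes, and 26 of 42 were above 0, where 56.3% of all genes were. Itga9 (-1.64, SE 0.82), Cttn (-1.24, SE 0.65) and Itgb3 (-0.91, SE 0.47) were also among the 5 lowest, and Itgal (1.24, SE 0.82), Fscn1 (1.18, SE 0.76), Ptk2 (1.05, SE 0.59) and Itgam (0.80, SE 0.44) among the 5 highest. DESeq2 called 0 members and 0.968% of all genes.

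Ptk2b had 250, 363, 209 and 227 CPM in the double mutant and 160, 152, 224 and 190 CPM in WT, and Ptk2 had 42.4, 60.0, 15.4 and 24.8 CPM in the double mutant and 13.8, 8.99, 31.5 and 14.3 CPM in WT. The libraries of both kinases overlapped between these groups. Itga9 had 2.51, 11.7, 7.95 and 0.48 CPM in the double mutant and 4.94, 7.27, 30.4 and 27.9 CPM in WT, where replicates 3 and 4 carry the difference.

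By their labels, FLT3 ITD and WT differ in the Flt3 mutation alone. Whether the lines differ elsewhere in the genome was not examined. None of the 42 members passed (0.0413% of all genes, 5 genes), and 3 had an unadjusted p under 0.05, where 8.45% of all genes had one. They were Itga4 (-0.63, SE 0.27), Arpc2 (0.29, SE 0.12) and Itgb7 (0.78, SE 0.36), each with an adjusted p of 0.59. Among all genes 5.23% were higher and 3.23% lower at such a p, and 54.5% lay above 0, as did 27 of the 42 members. Itga4 was lower and Arpc2 and Fermt3 higher in every FLT3 ITD library than in every WT library, 3 of 42 where 6.09% of all genes did not overlap (2.89% higher and 3.2% lower). With FLT3 ITD replicate 2 left out, Itga4 stood at -0.40 and Arpc2 at 0.17. The highest value was that of Fscn1 (1.5, SE 0.76, adjusted p = 0.6), with 1.57, 2.08, 2.19 and 10.9 CPM in FLT3 ITD and 2.18, 1.75, 0.962 and 0.995 CPM in WT, and the lowest, further from 0, that of Itga9 (-1.58, SE 0.82). Itgb3 (0.73, SE 0.47), Gsn (0.40, SE 0.35) and Cttn (0.33, SE 0.64) were the other 3 of the 5 highest, and Dock5 (-0.33, SE 0.51), Tns3 (-0.27, SE 0.25; tensin-3, an adaptor of podosomes) and Itgb5 (-0.26, SE 0.74) the other 3 of the 5 lowest. On the log2(TPM + 1) scale Cttn stood at -0.20, and without WT replicate 3 Itgb5 stood at 0.26.

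In FLT3 ITD replicate 2, 9 members longer than the median counted length of 5461.5 bases lay under the other 3 FLT3 ITD libraries and 1 lay over them. Of the shorter members 8 lay under and 7 over. Itga4 and Arpc2, at opposite ends of the length range (13978 and 2033 counted bases), were outside the other 3 libraries on opposite sides. The matching shares over all genes were not computed, and the part of length in these differences was not tested.

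By their labels, Ptprc KO and WT differ in the knockout of Ptprc alone, and other differences between the lines were not examined. None of the 42 members passed (0.0331% of all genes, 4 genes), 0 had an unadjusted p under 0.05, where 0.843% of all genes had one (0.339% higher and 0.504% lower), and 0 did not overlap, where 1.41% of all genes did not (0.786% higher and 0.62% lower). Of the 42, 32 lay above 0, where 54.9% of all genes did, with a median of 0.068 beside 0.017 over all genes. DESeq2 also called 0 members, with 0.091% of all genes. The difference furthest from 0 was that of Itgb3, at 0.70 (SE 0.47, adjusted p = 1). Fscn1 (0.67, SE 0.76), Cttn (0.49, SE 0.64), Itgb7 (0.42, SE 0.36) and Sh3pxd2a (0.30, SE 0.52) followed, and Itgax (-0.67, SE 0.70) was the lowest. Itgam, Itga9, Itgb5 and Itgal lay between -0.21 and -0.14, and each lies above 0 without WT replicate 3.

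The interaction, the double mutant minus each single mutant plus WT on the log2 scale, asks whether one change alters the effect of the other. No member passed of 42 (0.00827% of all genes, 1 gene), and 6 had an unadjusted p under 0.05, where 17.5% of all genes had one. Of these 1 was positive (7.4% of all genes) and 5 negative (10.1% of all genes), and 19 of 42 members lay above 0, where 51.2% of all genes did. They were Itgax (2.54, SE 1.00, adjusted p = 0.264), Itgb3 (-2.35, SE 0.67, adjusted p = 0.252), Cttn (-2.07, SE 0.91), Rhou (-2.03, SE 0.87), Vcl (-1.25, SE 0.49) and Itgav (-1.17, SE 0.47), the last 4 with adjusted p from 0.264 to 0.272. The other 4 of the 5 highest were Itgal (1.42, SE 1.14), Itgb5 (1.02, SE 1.05), Ptk2 (0.95, SE 0.83) and Itgam (0.78, SE 0.61). DESeq2 called Itgb3 (-2.38, adjusted p = 0.0397), among 1.36% of all genes. In the test of any difference among the 4 genotypes 0 of 42 members passed (0.223% of all genes), with Itgax at an adjusted p of 0.225. Without FLT3 ITD replicate 4, Itgax passed as the 1 member of 42 (adjusted p = 0.0189), among 0.861% of all genes. It was also the 1 member called by DESeq2 (adjusted p = 0.00514), among 3.77% of all genes.

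The roles were described by their counts, with no test between them. In the interaction, 7 of 8 alpha chains were above 0 (median 0.66), where 51.2% of all genes were, and Itgav was the exception, while 3 of 3 genes of actin severing, bundling and scaffolding were below 0 (median -0.97). In the double mutant against FLT3 ITD, 6 of 8 alpha chains were above 0 (median 0.55), where 52% of all genes were, and 7 of 10 actin nucleation genes were below 0, with a median of -0.088. The nucleation genes split 5 above and 5 below 0 in the double mutant against Ptprc KO (median -0.038) and against WT (median 0.0065), and 2 of the 3 severing, bundling and scaffold genes lay above 0 in the double mutant against WT. Against FLT3 ITD, 5 of the 8 adaptors were below 0 in the double mutant (median -0.035), from Vcl at -0.99 up to 0.11. Among the alpha chains in that same comparison, Itgav was lowest at -0.92 and Itgax highest at 1.86. Both adhesion kinases were above 0 in the double mutant against each other genotype, with medians of 0.66 against FLT3 ITD, 0.75 against Ptprc KO and 0.79 against WT. Of all genes, 52%, 54.4% and 56.3% were above 0 in these comparisons. With the resorption gene level as a covariate, a fit described below, Ptk2 turned to -0.31, -0.30 and -0.16.

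Itgb3, Itgav, Vcl, Cttn and Rhou were low in libraries where the resorption genes were low. Actr3, also lower in the double mutant than in FLT3 ITD, was not, as its highest library was FLT3 ITD replicate 4. None of the 15 resorption genes passed in any comparison, and all 15 lay below 0 in the double mutant against FLT3 ITD (median -1.08), Ptprc KO (median -1.17) and WT (median -0.82). The lowest resorption levels were those of double-mutant replicates 1, 2 and 4 and FLT3 ITD replicate 4, the libraries with the lowest Itgav, Cttn and Rhou. With the mean log2 CPM of the resorption genes as a covariate, measured in the same libraries, the double mutant against FLT3 ITD gave log2 fold changes of -0.45 (SE 0.37) for Itgb3, -0.081 (SE 0.18) for Vcl, -0.064 (SE 0.23) for Itgav, 0.035 (SE 0.26) for Rhou and 0.30 (SE 0.26) for Cttn. Rhou and Cttn thus turned sign in that fit, and Itgax stood at 0.73 (SE 0.62).

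With the same covariate, the double mutant against Ptprc KO gave -0.48 (SE 0.36) for Itgb3, -0.19 (SE 0.18) for Vcl and 1.06 (SE 0.72) for Itgax. Gsn had the smallest p of the members there, at 0.82 (SE 0.17, adjusted p = 0.12), and 0 of 42 members passed in any comparison. The covariate itself differed between the genotypes, so that its part and that of the genotype cannot be told apart by this fit. Dendritic cell markers, which matter beside Itgax, were low in all groups. Summed levels over 9 genes were 3.89 to 15.6 CPM in the double mutant and 8.36 to 12.4 in FLT3 ITD. They were 6.18 to 12.3 CPM in Ptprc KO and 4.43 to 7.81 in WT. Siglech, Cd209a and Xcr1 were at 0 in some libraries. Of the 9 genes, 6 were tested and 0 passed. Their median log2 fold change in the double mutant was 1.39 against WT (4 of 6 above 0) and 0.69 against Ptprc KO (4 of 6). It was -0.42 against FLT3 ITD (1 of 6), and 1.10 in FLT3 ITD against WT (5 of 6). The medians of all genes in these comparisons were 0.053, 0.045, 0.027 and 0.037. The part of dendritic cells in the Itgax levels was not tested.

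**Figure D5:**
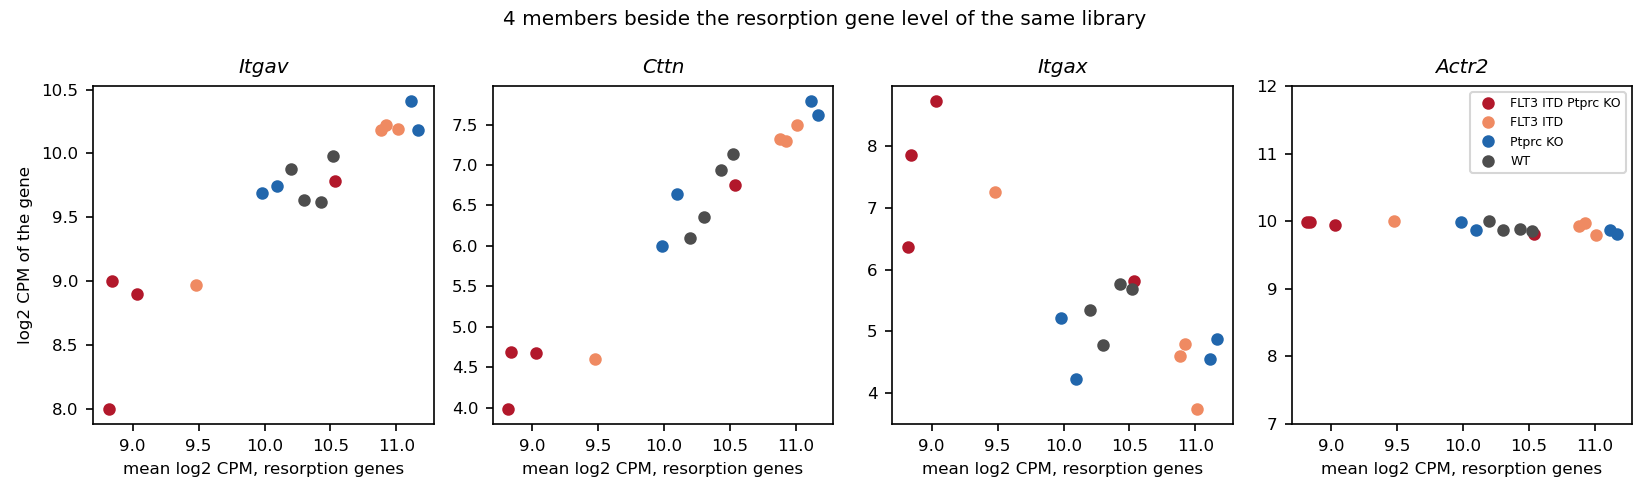
Log2 CPM of Itgav, Cttn, Itgax and Actr2 (up) against the mean log2 CPM of 15 resorption genes (across) in the 16 libraries, coloured by genotype. Double-mutant replicates 1, 2 and 4, at 8.82, 9.03 and 8.84 on the lower axis, hold low Itgav and Cttn, Itgax lies high in libraries with low resorption levels, and Actr2 stays level.

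Other genes of the same pathways were taken from a list of 109 further podosome, integrin and actin genes, of which 101 were tested. Trip6, a LIM-domain adaptor of the zyxin family, was the 1 gene of the 101 that passed, in the double mutant against Ptprc KO (1 of 101, where 0.091% of all genes passed) and in the test of any difference. It had 3.86, 2.32, 6.97 and 4.59 CPM in the double mutant, 9.71, 9.66, 8.69 and 5.04 in FLT3 ITD, 20.1, 28.2, 16.8 and 16.7 in Ptprc KO, and 5.74, 5.36, 8.004 and 8.10 in WT. All 4 Ptprc KO libraries lay above the other 12. Trip6 fell in the double mutant against Ptprc KO by 2.20 on the log2 scale (SE 0.32, adjusted p = 0.011). The call was lost without double-mutant replicate 1 (adjusted p = 0.0743), double-mutant replicate 4 (adjusted p = 0.0602) or Ptprc KO replicate 2 (adjusted p = 0.0504), and in a fit of these 2 genotypes alone (adjusted p = 0.202).

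No other gene of the list passed. In the double mutant against FLT3 ITD, 16 of the 101 had an unadjusted p under 0.05 with higher and 13 with lower levels, where 11.9% and 13.7% of all genes had one. Fmnl1, a formin that elongates actin filaments in macrophages, had 253, 222, 271 and 248 CPM in the double mutant, against 160, 116, 161 and 186 CPM in FLT3 ITD (0.67, SE 0.14, adjusted p = 0.103). Src, the kinase that osteoclasts need to resorb bone and that acts under αvβ3, had 142, 185, 471 and 250 CPM in the double mutant, 500, 432, 509 and 167 in FLT3 ITD, 419, 568, 584 and 308 in Ptprc KO and 439, 502, 313 and 387 in WT, and its libraries overlapped in each pair of groups. Syk, the kinase next in that pathway, ran from 323 to 494 CPM in the double mutant, 323 to 487 in FLT3 ITD, 396 to 531 in Ptprc KO and 412 to 482 in WT.

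Of 18 extracellular ligands of integrins, 15 were tested and 0 passed. Spp1 (osteopontin, a ligand of αvβ3 that osteoclasts make themselves) had 1201, 781, 1157 and 691 CPM in the double mutant, 1627, 2202, 1683 and 1992 in FLT3 ITD, 689, 1354, 1367 and 645 in Ptprc KO, and 1051, 1245, 946 and 1183 in WT. Every FLT3 ITD library lay above every WT and every double-mutant library, with log2 fold changes of 0.76 for FLT3 ITD against WT (SE 0.26, adjusted p = 0.59) and -0.97 for the double mutant against FLT3 ITD (SE 0.26, adjusted p = 0.107). Vcam1, the cell-surface ligand of α4 integrins, had 3.40, 7.54, 0.293 and 1.14 CPM in the double mutant, 0.909, 0.606, 1.09 and 10.9 in FLT3 ITD, 14.7, 75.2, 34.8 and 214 in Ptprc KO, and 17.7, 12.3, 164 and 143 in WT. Ptprc KO replicate 4 and WT replicates 3 and 4 held most of the counts of their genotypes, and every double-mutant and FLT3 ITD library lay below every WT and Ptprc KO library.

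Itgad, the αD chain whose gene follows Itgax, had 3 counts in the double mutant, 4 in FLT3 ITD, 302 in Ptprc KO and 433 in WT, over 4 libraries each. In Ptprc KO these came to 0.331, 2.54, 0.453 and 7.90 CPM in replicates 1 to 4 and in WT to 0.173, 0.345, 9.52 and 4.90 CPM, so that few libraries held most of them. The ratio of counts was 114 for Ptprc KO over the double mutant (95% interval 38.8 to 558) and 97.0 for WT over FLT3 ITD (37.6 to 358), intervals that cover counting error only. Itgad did not pass in any comparison (adjusted p = 0.12 for the double mutant against Ptprc KO). Itgad counts were low in both genotypes that carry FLT3 ITD.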

How the data were processed

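RNA from the 16 osteoclast cultures was sequenced after poly(A) selection of 500 ng of RNA with a directional kit and adaptors carrying unique molecular identifiers, per the labels' protocols. The authors deposited whole-number counts per gene and a table of TPM scaled to gene length, which was used for levels between genes. Per the submitters' processing notes, reads were handled on build GRCm38.p6 with the aligner STAR (2.7.6a), the counter featureCounts (2.0.3), UMI-tools (1.1.1), cutadapt (4.2) and bcl2fastq (2.20.0.422). Settings, strand included, were not given in the sources used here. Gene coordinates came from the GENCODE annotation of that build, and 721 of the deposited genes are named by Ensembl ID only.

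Tests on the deposited counts used edgeR 4.0.16 under R 4.3.3 (filterByExpr, TMM factors, robust quasi-likelihood fit of the 4 genotypes over all 16 libraries, 12 residual degrees of freedom), two-sided, with Benjamini-Hochberg adjustment over 12093 genes and a threshold of 0.05. The common dispersion came to 0.137. Standard errors were taken from each log2 fold change and its F statistic. Log2 CPM used a prior count of 2. The choices varied were the scaling (RLE factors), the gene filter (none, or a mean of 50 counts or more), a replicate block, the samples fitted (only the groups compared), the tool (DESeq2 1.42.0, or limma 3.58.1 on log2(TPM + 1) where mean TPM reached 1), the resorption level as a covariate, the closest FLT3 ITD pair summed, and each library left out. The scripts were tested on simulated data. The members and lists were chosen with earlier results of these data known. Values in every library are given for Itgb3, Itgav, Itgb1 and Itgb2 and for the 8 members with the smallest p over all genotypes, and each comparison names its 5 highest and 5 lowest members. Library values of further members and of genes outside the 42 were added after their values were seen. Counting intervals are exact 95% binomial ones. 1 named gene of the pathway list is not reported here.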

Additional observations from a re-analysis of the deposited data

Results flagged for a closer look

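Among 168 groups of 4 libraries (42 members in 4 genotypes), 23 held a library that passed Dixon's 95% critical value. The measure was its gap to its nearest neighbour on the log2 CPM scale, as a share of the group's range. Independent groups would give about 1 in 20, or 8.4, by chance alone. These groups share the same libraries and some members vary together, so 23 beside 8.4 is no test of an excess. The share over all genes was not computed. FLT3 ITD replicate 4 accounted for 11 of them. It was low for Itgb3 (143 CPM), Itgav (502 CPM), Cttn (24.2 CPM), Rhou (8.99 CPM) and Gsn (543 CPM). It was high for Itgb5 (174 CPM), Itga5 (527 CPM), Itgam (354 CPM), Zyx (161 CPM), Fermt3 (463 CPM) and Fscn1 (10.9 CPM).

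Double-mutant replicate 3 stood high for Tln1 (1574 CPM), Wipf1 (303 CPM) and Gsn (1304 CPM) and low for Arpc1b (933 CPM). Double-mutant replicate 2 stood high for Itga5 (536 CPM) and Myo9b (427 CPM). Ptprc KO replicate 4 stood high for Itgb5 (171 CPM), Itga5 (380 CPM) and Arpc5 (577 CPM), and Ptprc KO replicate 1 low for Itgb1 (601 CPM) and Itgb2 (672 CPM). FLT3 ITD replicate 2 stood low for Myo9b (109 CPM). None of the 42 members passed the test of the interaction in edgeR, where 6 had an unadjusted p under 0.05 (17.5% of all genes did) and DESeq2 called 1 (1.36% of all genes).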

How the results depend on the processing

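In edgeR on all 16 libraries 0 members passed in any of the 7 tests. The count was also 0 in each of the 7 with RLE factors, without a filter, with genes of 50 or more counts on average, the replicate block, TPM, the resorption covariate and the FLT3 ITD pair summed, also with FLT3 ITD replicate 2 left out (chosen after seeing the data), and in the 5 pairs when only the groups compared were fitted. DESeq2 called 3 members in the double mutant against FLT3 ITD, 2 against Ptprc KO, 1 in the interaction and 1 in any difference. It called 8.14%, 2.75%, 1.36% and 3.77% of all genes in these tests. With 1 library left out (16 fits), members called ranged from 0 to 8 in the double mutant against FLT3 ITD, 0 to 6 against Ptprc KO and 0 to 1 in any difference, and were 0 elsewhere. Calls came without FLT3 ITD replicate 4 (8, 1 and 1 of 42 in these tests, among 14.7%, 0.656% and 0.861% of all genes). They also came without double-mutant replicate 3 (5 and 6 of 42 in the pairs, among 10.8% and 6.45% of all genes).

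The members' median log2 fold change in FLT3 ITD against WT, 0.14, was 0.029 with the replicate block, 0.012 with the covariate and -0.19 on the TPM scale. On that scale it was 0.17 in the double mutant against FLT3 ITD and 0.20 in the interaction, where the medians of all genes shifted to -0.21, 0.22 and 0.31 in these tests.

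Of the 65 member values named in the comparisons, Cttn in FLT3 ITD against WT turned to -0.20 on the TPM scale. With the FLT3 ITD pair summed and replicate 2 left out, Cttn turned to -0.18 and Itgb5 to 0.31 in that comparison. The resorption covariate, tried on single members after seeing the data, turned the sign of 17 of the 65: Cttn to -0.28 in FLT3 ITD against WT and Sh3pxd2a to -0.032 in Ptprc KO against WT. In the double mutant against FLT3 ITD it turned Rhou to 0.035, Cttn to 0.30, Itgb5 to -0.47 and Ptk2 to -0.31, against Ptprc KO Sh3pxd2a to 0.25, Itgb5 to -0.75 and Ptk2 to -0.30, and against WT Cttn to 0.025, Ptk2 to -0.16 and Fscn1 to -0.32. In the interaction it turned Cttn to 0.27, Rhou to 0.16, Itgam to -0.13, Ptk2 to -0.46 and Itgb5 to -0.46. With 1 library left out, Itgb5 ran from -1.15 to 0.26 in FLT3 ITD against WT, -0.997 to 0.32 in Ptprc KO against WT, -0.35 to 1.72 in the double mutant against FLT3 ITD, -0.40 to 1.55 against Ptprc KO and -0.14 to 1.92 in the interaction. In Ptprc KO against WT, Itgam ran from -0.52 to 0.018, Itga9 from -0.78 to 0.19 and Itgal from -0.96 to 0.18. DESeq2, RLE factors, both other filters, the replicate block, the FLT3 ITD pair summed and the groups compared alone turned 0 of them. The cause of the reversals was not tested.

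The replicate numbers are not stated to pair the samples. Same-numbered libraries of different genotypes had a mean correlation of 0.07 in their deviations (12 of 24 pairs over 0.1), and differently numbered ones -0.01. The replicate block gave 47 genes in the double mutant against Ptprc KO, against 11 without it, and 0 members. Genes called by DESeq2 were 60 in FLT3 ITD against WT, 11 in Ptprc KO against WT, 984, 332 and 117 in the double mutant against FLT3 ITD, Ptprc KO and WT, 165 in the interaction and 456 in any difference. In these 7 tests edgeR called 5, 4, 1, 11, 13, 1 and 27, and 1, 2, 1, 3, 5, 0 and 13 among genes of 50 or more counts on average. Trip6 kept its call in 21 of 26 alternatives (log2 fold change -2.51 to -1.65); with the covariate its adjusted p was 0.055. Fscn1 and Itga9 had libraries under 1 CPM, where depth limits precision.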

Other observations

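Itga2, the collagen receptor chain α2, is outside the 42 members and had 8.76, 14.97, 37.3 and 4.71 CPM in the double mutant, 61.6, 31.3, 61.3 and 14.4 in FLT3 ITD, 47.7, 106, 80.1 and 46.2 in Ptprc KO, and 55.8, 34.2, 50.2 and 31.9 in WT. Double-mutant replicates 1, 2 and 4 lay below every WT and Ptprc KO library, and FLT3 ITD replicate 4 was the lowest of its genotype. Pip5k1c, the kinase that makes the lipid talin binds, had 461, 481, 658 and 471 CPM in the double mutant, 930, 639, 897 and 394 in FLT3 ITD, 556, 941, 1028 and 486 in Ptprc KO, and 572, 704, 524 and 603 in WT. Diaph1, a formin that builds unbranched actin filaments, had 324, 404, 203 and 257 CPM in the double mutant, 178, 116, 175 and 368 in FLT3 ITD, 158, 161, 147 and 239 in Ptprc KO, and 165, 159, 227 and 181 in WT. The genes were picked after their values were seen, and none passed a test.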
